A study of Homo sapiens with 4 samples.

Results

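Huh7-C and Hep3B-C are hepatic cancer stem cell lines (HCSCs), stem-like cells derived from the human hepatoma lines Huh7 and Hep3B, and their mature miRNAs were compared with each other here. The series holds 4 small RNA libraries, 1 from each HCSC line and 1 from each hepatoma line (HCC cells). The labels name no drug, gene change or time point for any of them, and how the stem-like cells were cultured is not given in the labels. Each HCSC line was 1 culture of 1 tumour line with 1 library and no replicates, so every difference below is a difference between 2 libraries, and it cannot be told apart from variation between cultures or library preparations. Of the 1733 miRNA names in the count files, 502 had 10 or more counts in at least 1 HCSC library and were compared. They held 99.98% of the miRNA counts in each library. The prefix hsa- is left out of miRNA names, and an asterisk marks the strand named as the less abundant of a hairpin in miRBase release 17. In these libraries the starred strand can be the more abundant, as for miR-221* in Hep3B-C (4527 counts against 1073 for miR-221).

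miRNAs are short RNAs cut from hairpin precursors. They guide a silencing complex to messenger RNAs, mostly by pairing of the seed, bases 2 to 8 counted from the 5′ end. miRNAs with the same seed are grouped as a family, and hairpins that lie close together on a chromosome are often cut from 1 shared transcript. In liver, miR-122 is the miRNA that marks hepatocytes, miR-192 and miR-194 are also abundant, and miR-21 is a miRNA known for high levels in tumours. The let-7 family is known for holding back fetal and proliferative genes, the miR-200 family for keeping the epithelial state, and the miR-302 and miR-371 clusters for pluripotent stem cells.

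The sequences below are the mature miRNAs on which the comparison turns, with the seed in capitals. They come from RefSeq (GRCh38.p14), in which 416 of the 502 miRNAs were found, 195 of them under the same name and the others under the current name of the same arm. The most abundant miRNAs that both HCSC lines shared are shown first.
miR-378: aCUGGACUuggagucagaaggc
miR-21: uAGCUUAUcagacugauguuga
miR-192: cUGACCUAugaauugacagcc
miR-148a: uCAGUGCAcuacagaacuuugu
miR-122: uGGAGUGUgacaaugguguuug

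The next sequences belong to miRNAs that were low in 1 HCSC line, at no more than 42 counts, and abundant in the other. The first 4 were abundant in Huh7-C, and the last 4 in Hep3B-C.
miR-196a: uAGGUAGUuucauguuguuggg
miR-452: aACUGUUUgcagaggaaacuga
miR-224: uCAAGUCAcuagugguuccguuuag
miR-10a: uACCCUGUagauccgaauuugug
miR-200b: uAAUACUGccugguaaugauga
miR-429: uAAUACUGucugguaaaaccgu
miR-379: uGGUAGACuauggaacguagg
miR-134: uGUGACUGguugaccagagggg

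The last sequences are pairs with the same seed whose members differed in ratio between the lines. They are shown because few bases separate them.
let-7a: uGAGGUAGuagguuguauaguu
let-7c: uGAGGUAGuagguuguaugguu
miR-146a: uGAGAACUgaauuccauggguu
miR-146b-5p: uGAGAACUgaauuccauaggcug
miR-27a: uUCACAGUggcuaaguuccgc
miR-27b: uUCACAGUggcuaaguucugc
miR-30e: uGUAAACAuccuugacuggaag
miR-30a: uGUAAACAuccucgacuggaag
miR-99a: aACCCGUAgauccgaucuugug
miR-100: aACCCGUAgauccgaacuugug
miR-196b: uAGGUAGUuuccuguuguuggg

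The Hep3B-C library held 5430195 miRNA counts and the Huh7-C library 4045199. In Hep3B-C 773 miRNAs had a count above 0, and in Huh7-C 664. Levels are given as CPM, the count of a miRNA divided by all miRNA counts of its library and multiplied by 1000000. The smallest level the depth can show was taken as 3 counts per library, equal to 0.552 CPM in Hep3B-C and 0.742 CPM in Huh7-C. Of the 502 miRNAs, 313 had 10 or more counts in both libraries, 150 in Hep3B-C alone and 39 in Huh7-C alone. At the threshold itself, 12 miRNAs had 10 counts in the higher library and were kept, such as miR-10b* with 10 counts in Huh7-C, and 20 had 9 and were left out, such as miR-144* with 9 in Hep3B-C. Intervals are 95% intervals that cover counting error only, since PCR reads are not independent molecules. Those of shares are Clopper-Pearson intervals, none wider than 0.0909 percentage points, and those of log2 ratios are exact binomial intervals of the counts of both libraries given their sum. No p-value is given.

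The HCSC lines shared most of their abundant miRNAs. Of the 20 most abundant miRNAs of each line, 13 were the same, and these 13 held 78.0% of the miRNA counts in Hep3B-C and 83.8% in Huh7-C. The level in Huh7-C was within 2-fold of that in Hep3B-C for 7 of the 13, at least 2-fold lower for 5 and at least 2-fold higher for 1, miR-21. With TMM or DESeq2 library sizes, alternatives run on this set after seeing the data, the numbers were 7, 4 and 2, since miR-192 passed 2-fold (log2 ratios 1.08 and 1.13) and miR-151-3p no longer did (-0.96 and -0.91). Among the 10 most abundant of each line, 8 were shared, and among the 50 most abundant, 35. Of the 13, 10 were also among the 20 most abundant of both HCC lines, Hep3B and Huh7.

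miR-378, a miRNA encoded in an intron of PPARGC1B (chr5:149732825-149732890), ranked first in Hep3B-C with 1298641 counts (23.9%) and second in Huh7-C with 759746 counts (18.8%). Its log2 ratio of Huh7-C over Hep3B-C was -0.35 (interval -0.35 to -0.34). miR-21, from an intron of VMP1 (chr17:59841266-59841337), ranked first in Huh7-C with 1292482 counts (31.95%) and second in Hep3B-C with 568486 counts (10.5%). The leading miRNA therefore differed between the lines, and miR-21 was 3.05-fold higher in Huh7-C (log2 ratio 1.61). The sign of the small miR-378 difference turned with library scaling, with a log2 ratio of 0.02 with TMM library sizes and 0.07 with DESeq2 size factors.

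The liver miRNA miR-192 had 386372 counts (7.12%) in Hep3B-C and 469706 (11.6%) in Huh7-C. miR-148a, a member of the family of miR-148 and miR-152, had 366764 (6.75%) and 306533 (7.58%). The hepatocyte miRNA miR-122 had 149892 counts (2.76%) in Hep3B-C and 144814 (3.58%) in Huh7-C. The log2 ratios were 0.71 for miR-192, 0.17 for miR-148a and 0.38 for miR-122, all within 2-fold, though miR-192 passed 2-fold with TMM and DESeq2 as given above. miR-103a, miR-30d and miR-93 completed the miRNAs within 2-fold, with log2 ratios of -0.95, -0.10 and -0.76. The ratio of miR-30d turned positive with TMM library sizes (0.27) and DESeq2 size factors (0.32).

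Within the shared set, miR-182 and miR-183, which lie in 1 cluster with miR-96, were 3.47-fold and 3.81-fold lower in Huh7-C. miR-182 made up 9.14% of the counts in Hep3B-C and 2.64% in Huh7-C. let-7a was lower too, with 5.09% in Hep3B-C and 1.61% in Huh7-C (log2 ratio -1.66). miR-146b-5p and miR-151-3p were also lower in Huh7-C, with log2 ratios of -1.68 and -1.33. These 5 were the shared abundant miRNAs that were at least 2-fold higher in Hep3B-C.

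**Figure D1:**
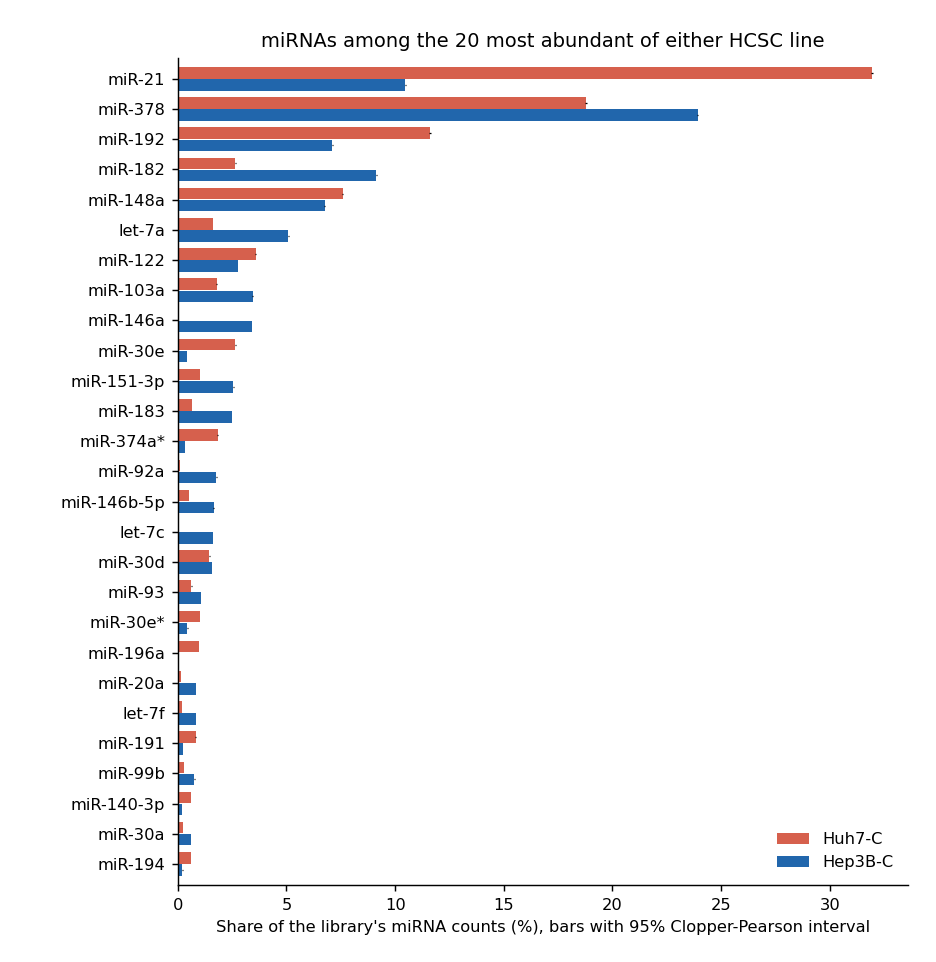
Share of each library's miRNA counts, in percent on a linear axis from 0, for the 27 miRNAs among the 20 most abundant of Hep3B-C (blue) or Huh7-C (red), 1 library each, with 95% Clopper-Pearson counting intervals. miR-21 (10.5% and 31.95%) and miR-378 (23.9% and 18.8%) stand above the rest in both lines, whereas miR-146a, let-7c and miR-92a show a visible bar in Hep3B-C only and miR-196a in Huh7-C only.

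Huh7-C was the more concentrated library. Its 5 most abundant miRNAs held 73.5% of its counts, against 57.4% in Hep3B-C. In Huh7-C, 2 miRNAs were enough to hold 50% of the counts and 17 to hold 90%, and in Hep3B-C it took 4 and 25. Outside the shared set, miR-30e, miR-374a*, miR-30e*, miR-196a, miR-191, miR-140-3p and miR-194 were among the 20 most abundant of Huh7-C only. miR-146a, miR-92a, let-7c, miR-20a, let-7f, miR-99b and miR-30a were so in Hep3B-C only.

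Below the shared abundant miRNAs the lines differed widely. At least 2-fold higher levels in Huh7-C were found for 110 of the 502 miRNAs (21.9%), and at least 2-fold higher levels in Hep3B-C for 246 (49.0%). The other 146 (29.1%) were within 2-fold. At 8-fold the numbers were 36 (7.17%) and 86 (17.1%), and at 100-fold 7 and 25. These counts include 65 miRNAs with 0 counts in Huh7-C and 13 with 0 counts in Hep3B-C, for which the count of 0 was set to 3 and the ratio is a bound. Of the 313 miRNAs with 10 or more counts in both libraries, 71 were at least 2-fold higher in Huh7-C and 109 in Hep3B-C.

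The median log2 ratio was -0.94 over the 502 miRNAs and -0.23 over the 313, and the numbers and medians of the groups below stand beside these values. TMM library sizes moved every log2 ratio by 0.37, DESeq2 size factors by 0.42 and total reads by 0.10. Weighted by counts, the miRNAs within 2-fold held 49.97% of the counts in Hep3B-C and 48.7% in Huh7-C. Those higher in Huh7-C held 12.5% and 42.9%, and those higher in Hep3B-C held 37.5% and 8.45%. Over the 313 miRNAs, the log2 levels of both libraries had a Pearson correlation of 0.81 and a Spearman correlation of 0.76, which are given as descriptions, since miRNAs of 1 library share its depth and composition.

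**Figure D2:**
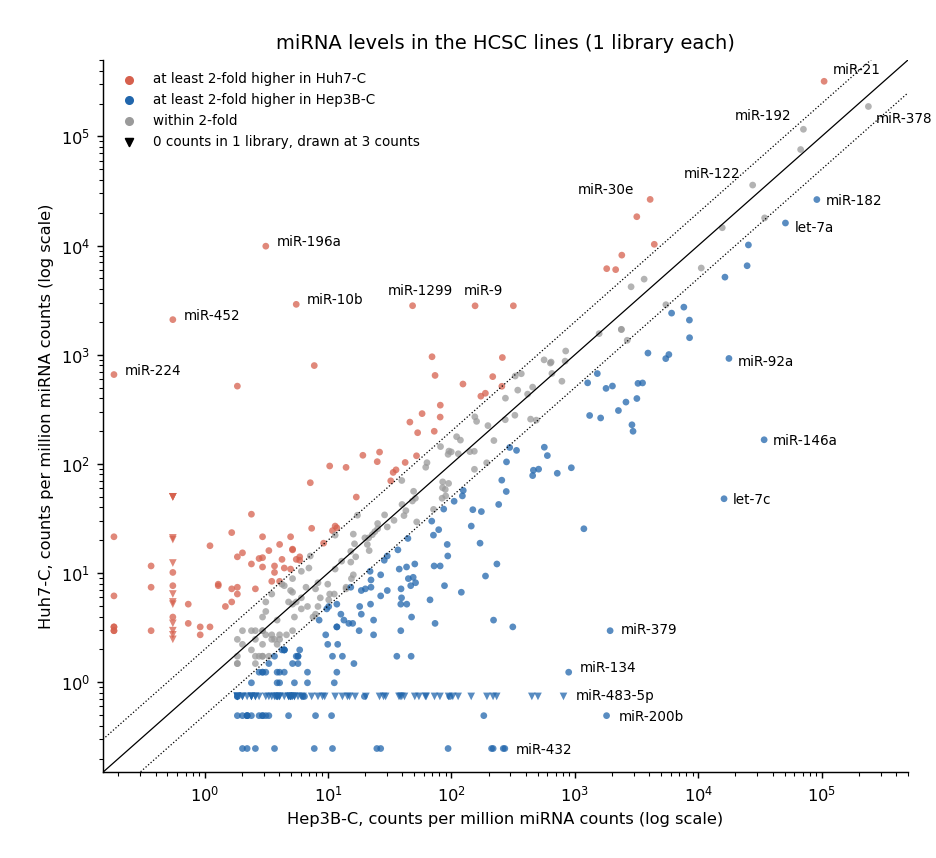
Level of each of the 502 miRNAs in Hep3B-C (x axis) and Huh7-C (y axis), 1 library each, in CPM on log axes, with the solid line at equal levels and dotted lines at 2-fold. The 110 miRNAs at least 2-fold higher in Huh7-C are red and the 246 higher in Hep3B-C blue, and triangles mark the 78 miRNAs with 0 counts in 1 library, drawn at 3 counts.

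The largest ratios toward Huh7-C belonged to miRNAs that were almost absent from Hep3B-C. miR-452 had 3 counts in Hep3B-C and 8478 in Huh7-C, a log2 ratio of 11.89 (interval 10.34 to 14.17). miR-224 had 1 and 2662 counts, a log2 ratio of 11.80 (interval 9.32 to 17.11). Both hairpins lie in an intron of GABRE on chromosome X (chrX:151958578-151959712), and miR-452*, the other strand, had 0 and 85 counts. All 3 miRNAs kept from this pair of hairpins were thus at or under the detection limit in Hep3B-C, with 4 counts together against 11225 in Huh7-C.

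miRNAs of the HOX clusters, which lie among the homeobox genes that set position along the body axis, formed a further group higher in Huh7-C. Their 10 names summed to 8634 counts in Hep3B-C and 61212 in Huh7-C, a 9.52-fold higher level in Huh7-C. Of the 7 kept, 6 were at least 2-fold higher in Huh7-C and none lower, but only 4 had 10 or more counts in both lines, 3 of them higher in Huh7-C, and the others were kept through their counts in Huh7-C. miR-196a had 17 and 39922 counts (log2 ratio 11.62, interval 10.94 to 12.40), and it was the fourteenth most abundant miRNA of Huh7-C. Its 2 RefSeq hairpins lie in introns of HOXC6 (chr12:53991738-53991847) and HOXB7 (chr17:48632490-48632559), and mature counts do not tell them apart. miR-10b had 30 and 11705 counts (log2 ratio 9.03), and miR-10a, near HOXB4, had 42 and 3218 (log2 ratio 6.68). miR-196b, from an intron of HOXA9, was the exception, with 8544 and 6310 counts and a log2 ratio of -0.01 (interval -0.06 to 0.03). In cultured cells, fewer cells that express a miRNA and less of it per cell cannot be told apart in these libraries.

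Other miRNAs with large ratios toward Huh7-C lay outside these groups. miR-34c-5p, of the miR-34 family, had 10 counts in Hep3B-C and 2086 in Huh7-C (log2 ratio 8.13). Its family member miR-34a went the other way, with 214 and 24 counts (log2 ratio -2.73, interval -3.40 to -2.12). miR-1299 had 263 and 11373 counts, a log2 ratio of 5.86. miR-9, known from the nervous system, had 844 and 11349 counts (log2 ratio 4.17), and miR-9* had 11 and 62. miR-124, the other neural marker, had 0 counts in both lines. miR-3689a-5p, miR-3689b and miR-3689e each had 0 and 202 counts, at least 90.4-fold higher in Huh7-C, but their counts were identical in all 4 libraries and are not separate measurements.

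By absolute level, the increments of Huh7-C came from miR-21, miR-192, miR-30e, miR-374a*, miR-196a, miR-148a, miR-122, miR-30e*, miR-191 and miR-140-3p, the 10 largest differences in CPM. miR-30e had 22133 counts in Hep3B-C and 107033 in Huh7-C (log2 ratio 2.70), and miR-30e* had 23904 and 41521 (log2 ratio 1.22). With miR-30c-1*, both are cut from hairpins in an intron of NFYC (chr1:40754355-40757372), and all 3 were at least 2-fold higher in Huh7-C. miR-374a*, from an intron of FTX on chromosome X, had 17249 and 74317 counts (log2 ratio 2.53). miR-191 and miR-425, whose hairpins lie together on chromosome 3, had log2 ratios of 1.77 and 1.87.

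Among the largest ratios toward Hep3B-C was that of miR-200b, of the miR-200 family. It had 9812 counts in Hep3B-C and 2 in Huh7-C, a log2 ratio of -11.84 (interval -14.88 to -9.98). Its place among the largest depends on how a count of 0 is treated, since with 0.5 counts added it had -11.51, and miR-483-5p (-12.68), miR-127-3p (-11.99) and miR-200a (-11.82) lay beyond it. miR-200a had 2434 and 0 counts and was at least 604-fold higher in Hep3B-C, and miR-429 had 1053 and 0 counts and was at least 262-fold higher. These hairpins lie within chr1:1167104-1169087, where 5 miRNAs were kept with 15242 counts in Hep3B-C and 3 in Huh7-C. The second cluster of the family, miR-200c and miR-141 on chromosome 12 (chr12:6963699-6964191), kept a measurable level in Huh7-C. miR-200c had 5085 and 373 counts (log2 ratio -3.34), and miR-141 had 236 and 21 (log2 ratio -3.07). Of the 9 names of the family, 8 were kept and all 8 were at least 2-fold lower in Huh7-C, but only 2 had 10 or more counts in both lines.

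The DLK1-MEG3 locus is an imprinted region of chromosome 14 that holds many miRNA hairpins. Its 70 names summed to 27107 counts in Hep3B-C and 22 in Huh7-C, a log2 ratio of -9.84 (interval -10.52 to -9.24). The 41 miRNAs kept were all lower in Huh7-C by at least 2-fold, 35 of them with 0 counts there. They were kept through their counts in Hep3B-C, and miR-379 was the only one with 10 or more counts in both lines, so this number says no more than the summed counts do. miR-379 had 10485 counts in Hep3B-C and 12 in Huh7-C, and miR-134 had 4840 and 5. miR-127-3p had 2729 and 0 counts and was at least 678-fold higher in Hep3B-C. miR-432 had 1470 and 1 counts (log2 ratio -10.10, interval -15.40 to -7.62), and miR-382 had 1182 and 1 (log2 ratio -9.78, interval -15.09 to -7.30). Among the kept miRNAs with a place in RefSeq, those of this locus fell into 2 runs on the plus strand. The run at chr14:100869060-100884783 went from 6059 counts in Hep3B-C to 1 in Huh7-C, and the run at chr14:101022066-101065991 from 20373 to 21.

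Another pair of imprinted genes gave similar counts. miR-483-5p, encoded within IGF2, had 4393 counts in Hep3B-C and 0 in Huh7-C and was at least 1091-fold higher in Hep3B-C. miR-675*, cut from the H19 RNA, had 135 and 1 counts (log2 ratio -6.65, interval -11.97 to -4.15). miR-483-3p and miR-675 had 27 and 21 counts in Hep3B-C and 0 in Huh7-C. The 4 names together had 4576 counts in Hep3B-C and 1 in Huh7-C. miR-296-3p had 1148 and 1 counts (log2 ratio -9.74, interval -15.05 to -7.26).

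The let-7 family was lower in Huh7-C as a whole, though let-7a remained among its 10 most abundant miRNAs. The 18 names held 8.17% of the counts in Hep3B-C and 1.89% in Huh7-C, a 4.33-fold difference. Of the 10 kept, 9 were at least 2-fold lower in Huh7-C, with log2 ratios from -1.66 for let-7a to -8.40 for let-7c. The tenth was let-7a* (-0.83). Only 8 of the 10 had 10 or more counts in both lines, 7 of them at least 2-fold lower in Huh7-C. let-7d (256 and 7 counts) and miR-98 (64 and 5) were kept through Hep3B-C alone. let-7c had 87854 counts in Hep3B-C (16179 CPM) and was at 48.0 CPM in Huh7-C. It shares an intron of MIR99AHG on chromosome 21 (chr21:16539089-16539911) with miR-99a, which had 1191 and 15 counts (log2 ratio -5.89). Together with miR-99a*, these went from 89071 counts in Hep3B-C to 211 in Huh7-C. miR-125b-2*, also on chromosome 21, had 1025 and 38 counts (log2 ratio -4.33).

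The miR-17-92 cluster, known for driving proliferation, was lower in Huh7-C in 11 of the 11 miRNAs kept of 14 names, with 10 of them at 10 or more counts in both lines. Its names held 3.41% of the counts in Hep3B-C and 0.373% in Huh7-C, a 9.16-fold difference. This sum includes miR-92a and miR-19b, which each have 2 RefSeq loci that mature counts do not tell apart. The 9 kept miRNAs with a single locus in the cluster had 85231 counts (15696 CPM) in Hep3B-C and 11016 (2723 CPM) in Huh7-C. miR-92a had 96268 and 3739 counts (log2 ratio -4.26), miR-20a 46172 and 5791 (log2 ratio -2.57) and miR-17 29610 and 3726 (log2 ratio -2.57). Its paralog, the miR-106b-25 cluster in an intron of MCM7 (chr7:100093560-100094074), differed less, with 0 of 6 miRNAs past 2-fold and log2 ratios from -0.97 for miR-25 to 0.05 for miR-106b. A further paralog, on chromosome X, had few counts and split. miR-363 had 13 and 140 counts (log2 ratio 3.85) and miR-20b 6 and 72 (log2 ratio 4.01), whereas miR-106a had 145 and 39 (log2 ratio -1.47).

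Several smaller groups were also lower in Huh7-C. miR-146a, known as a brake on inflammatory signalling, had 185624 counts (3.42%) in Hep3B-C, where it ranked eighth, and 673 (0.0166%) in Huh7-C, a log2 ratio of -7.68 (interval -7.79 to -7.57). The family of miR-130 and miR-301 was at least 2-fold lower in Huh7-C in 4 of the 4 kept, with 12885 and 1294 counts over its 6 names. Only 3 of the 4 had 10 or more counts in both lines, and miR-130b* (35 and 3) was kept through Hep3B-C alone. miR-181a and miR-181b had log2 ratios of -2.57 and -2.68, while miR-181c and miR-181d, on chromosome 19, were within 2-fold. miR-1269 had 6426 and 103 counts (log2 ratio -5.54), and miR-1269b had 8787 and 1066 (log2 ratio -2.62). miR-375, known from endocrine cells, had 31379 and 4060 counts (log2 ratio -2.53). miR-217 had 527 and 3 counts (log2 ratio -7.03, interval -9.31 to -5.48), and its neighbour miR-216a on chromosome 2 had 62 and 0.

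Some groups had few or no members past 2-fold. The family of miR-148 and miR-152 had 0 of 5 miRNAs past 2-fold and a median log2 ratio of 0.37. The pair of miR-221 and miR-222, known for high levels in many tumours, had 0 of 4 past 2-fold, and its 4 names had 6056 and 5035 counts. The cluster of miR-532, miR-500a and miR-660, in an intron of CLCN5, had 3 of 11 at least 2-fold higher in Huh7-C. Its median log2 ratio was 0.01, and of the 10 with 10 or more counts in both lines, 2 were at least 2-fold higher. With TMM or DESeq2 library sizes, the members past 2-fold numbered 1 of 5, 1 of 4 and 4 of 11 in these groups, all higher in Huh7-C. The miR-29 family differed more, with a median log2 ratio of 1.03 and 3 of 6 at least 2-fold higher in Huh7-C (5 of 6 with TMM or DESeq2), among them miR-29a with 1023 and 1795 counts (log2 ratio 1.24). The miR-30 family was mixed, with 5 of 11 higher and 3 lower in Huh7-C (5 and 1 with TMM or DESeq2). Its median was -0.02, and the sign of this median turned under each other scaling.

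**Figure D3:**
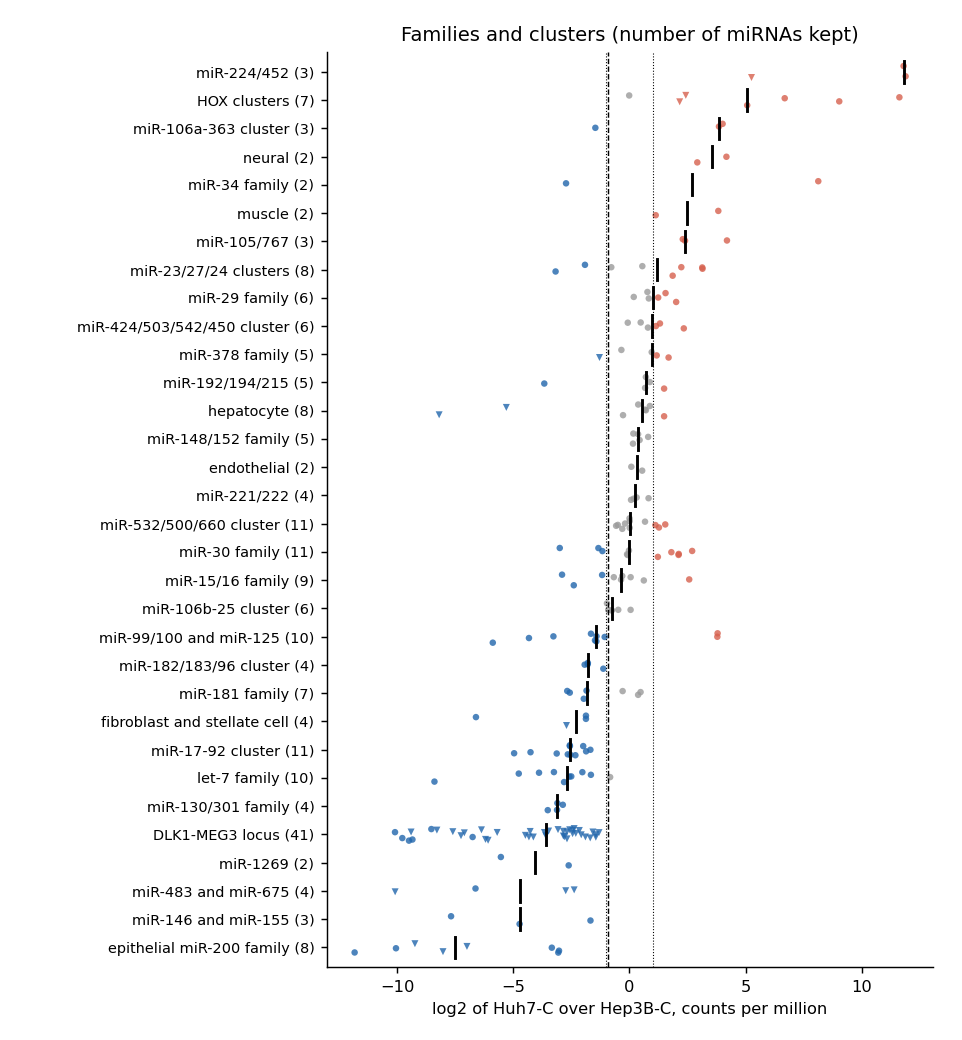
The log2 ratio of Huh7-C over Hep3B-C (x axis, from CPM, 1 library each) for the kept miRNAs of each family or cluster (rows, number kept in brackets), with a black bar at each median, a dashed line at the median of all 502 miRNAs (-0.94) and dotted lines at 2-fold. Points are red where higher in Huh7-C, blue where higher in Hep3B-C and grey within 2-fold, triangles mark bounds, and the rows run from the miR-200 family (median -7.51) to miR-224 and miR-452 (median 11.80).

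The position of the miRNA genes was read from RefSeq (GRCh38.p14), with host genes from GENCODE release 29. Of the 416 matched miRNAs, 375 had a single locus. Grouping hairpins on the same strand with gaps of at most 10 kb gave 31 clusters with 141 miRNAs. In 18 of them, every kept miRNA was at least 2-fold to 1 side, 6 toward Huh7-C and 12 toward Hep3B-C, and 1 cluster, the miR-363 cluster on chromosome X, held miRNAs past 2-fold in both directions. Strands of 1 hairpin and hairpins of 1 transcript are not independent measurements. Some of these clusters were kept through 1 line alone, so the filter itself set their side. Examples, with counts in Hep3B-C and Huh7-C, are those of miR-200b (15242 and 3), miR-224 (4 and 11225) and miR-3689a-5p (2 and 434). The number of clusters to 1 side therefore says little beyond these counts. The clusters toward Huh7-C were those of miR-30e, miR-27a, miR-191, miR-29a, miR-3689a-5p and miR-224.

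By chromosome, 39 of the 42 single-locus miRNAs on chromosome 14 were at least 2-fold higher in Hep3B-C, but only 6 of the 42 had 10 or more counts in both lines, 4 of them higher in Hep3B-C, and the rest were mostly kept through Hep3B-C alone. On chromosome X, 16 of 32 were at least 2-fold higher in Huh7-C and 2 higher in Hep3B-C, and of the 26 with 10 or more counts in both lines, 11 and 1. Over all chromosomes these numbers were 45 and 89 of 232. All 5 on chromosome 21 were higher in Hep3B-C, 3 of them with 10 or more counts in both lines. Most of the miRNAs on chromosome 14 belong to the DLK1-MEG3 locus, and many of those on chromosome X to clusters, so the miRNAs of a chromosome are not independent.

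The paralogous clusters of miR-23, miR-27 and miR-24 differed in opposite directions. On chromosome 19 (chr19:13836287-13836659), miR-23a, miR-27a, miR-27a* and miR-24-2* were all at least 2-fold higher in Huh7-C, with 2429 counts in Hep3B-C and 14807 in Huh7-C. On chromosome 9 (chr9:95085208-95085541), in an intron of C9orf3, miR-23b, miR-27b and miR-27b* had 22999 and 4626 counts. miR-27a had 1724 and 11356 counts (log2 ratio 3.14), and miR-27b had 21239 and 4189 (log2 ratio -1.92). These sequences differ by C19U (miR-27a base first, positions counted from 1 at the 5′ end), outside the seed. Their shared seed summed to 0.423% of the counts in Hep3B-C and 0.384% in Huh7-C, a log2 ratio of -0.14 (interval -0.17 to -0.11). The seed of miR-23a and miR-23b showed the same, with log2 ratios of 1.86 and -3.18 for the members and -0.08 for their sum (interval -0.21 to 0.05). Both sums were smaller in size than the shift of 0.37 that TMM library sizes bring, so neither has a direction that holds across scalings.

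Of the 38 seeds shared by 2 or more kept miRNAs, 11 held members past 2-fold in opposite directions. In 19 of the 38, the log2 ratios of the members spanned 3 or more. Some members were kept through 1 line alone, such as miR-20b (6 and 72 counts), so the filter itself set their side. The numbers of 11 and 19 therefore say little beyond the counts. For most pairs the sum followed the more abundant member. miR-30e and miR-30a differ by U13C (miR-30e base first), and their log2 ratios were 2.70 and -1.34. The seed they share with miR-30c summed to 1.03% of the counts in Hep3B-C and 2.94% in Huh7-C. miR-99a and miR-100 differ by U16A (miR-99a base first), with log2 ratios of -5.89 and 3.78. miR-100 had 378 and 3876 counts, but miR-99b held most of the counts of this seed, with 41499 and 11036, and the seed sum was 2.15-fold lower in Huh7-C.

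The next seed families had no members past 2-fold in opposite directions in CPM, but their members differed in the size of the ratio. let-7a and let-7c differ by A19G (let-7a base first), and their folds toward Hep3B-C were 3.16 and 337. miR-146a and miR-146b-5p differ by G18A and U21C over their shared length (miR-146a base first), with 1 more base at the 3′ end of miR-146b-5p, and their folds toward Hep3B-C were 205 and 3.20. The seed of the miR-146 pair therefore summed to 5.06% of the counts in Hep3B-C and 0.53% in Huh7-C. miR-192 and miR-215 differ by C1A and C20A (miR-192 base first). miR-192 was within 2-fold (log2 ratio 0.71), whereas miR-215 had 15756 and 923 counts (log2 ratio -3.67). With TMM or DESeq2 library sizes miR-192 passed 2-fold toward Huh7-C (1.08 and 1.13), the direction opposite to miR-215. miR-196a and miR-196b differ by A12C (miR-196a base first), with log2 ratios of 11.62 and -0.01. Their seed summed to 0.158% in Hep3B-C and 1.14% in Huh7-C. How reads that match 2 such members were assigned is not given in the sources used here, so the split between near-identical members carries that uncertainty.

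**Figure D4:**
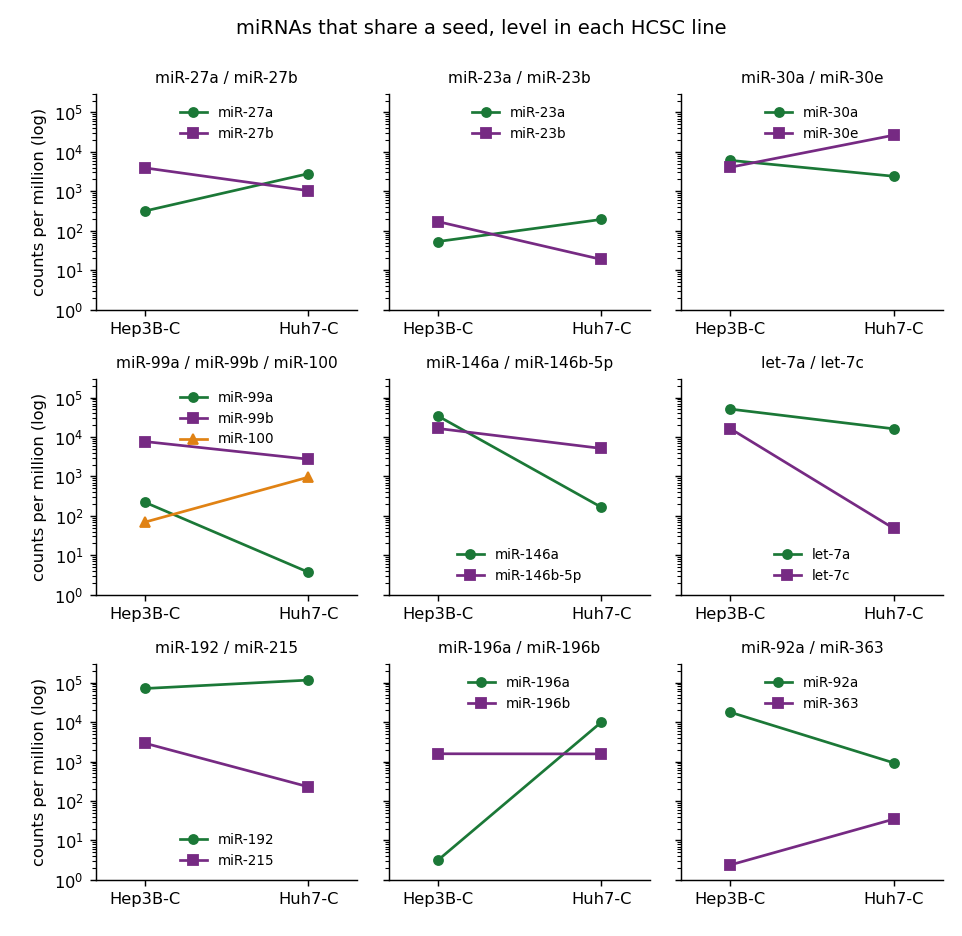
Level in Hep3B-C (left of each panel) and Huh7-C (right), 1 library each, in CPM on a log axis, for 9 sets of miRNAs that share a seed. From Hep3B-C to Huh7-C the lines of a panel slope in opposite directions for miR-27a and miR-27b, miR-23a and miR-23b, and miR-30a and miR-30e, and they fall with unequal slope for let-7a and let-7c.

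Length and base composition are given as a description. Among matched miRNAs, the median length was 22 bases in each group. The median GC content was 45.5% for the 86 higher in Huh7-C, 47.8% for the 214 higher in Hep3B-C and 47.8% for the 116 within 2-fold. A 5′ uracil was found in 40.7%, 48.1% and 43.1% of these groups.

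The marker lists bear on the labels of both lines. The hepatocyte list was abundant in both, with 10.2% of the counts in Hep3B-C and 15.9% in Huh7-C over its 8 names. Of these 8, miR-194 was at least 2-fold higher in Huh7-C with 11629 and 24347 counts (log2 ratio 1.49). With TMM or DESeq2 library sizes 4 of the 8 were. miR-885-3p and miR-885-5p were the members lower in Huh7-C, with 1181 and 159 counts in Hep3B-C and 0 in Huh7-C. The pluripotent stem cell list, 17 names of the miR-302 and miR-371 clusters, had 0 counts in Hep3B-C and 19 in Huh7-C, at most 7 for a single name, and none of its names was kept. Pluripotent stem cell miRNAs were therefore not detected above 3 counts in Hep3B-C and were near the detection limit in Huh7-C.

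Markers of other cell types were mostly low. The blood list had 10 counts in Hep3B-C and 9 in Huh7-C over 9 names. The muscle list had 36 and 139 over 4 names, of which miR-133a and miR-133b had 0 in both lines and miR-206 had 9 and 95. The 58 names of the placental cluster of chromosome 19 had 0 and 2 counts. The endothelial list, miR-126 and its other strand, had 1595 and 1703 counts and was within 2-fold. The fibroblast and stellate cell list had 1871 counts in Hep3B-C and 46 in Huh7-C over 10 names, and miR-143 made up most of it with 1706 and 13. Of the defining fibroblast markers, miR-145 had 5 counts and miR-214 and miR-199a-5p had 0 in Hep3B-C. miR-199b-5p had 27 counts in Hep3B-C and 0 in Huh7-C, and miR-199a-3p and miR-199b-3p, whose counts are identical, each had 64 and 13. Whether these markers have a part in the differences between the lines was not tested.

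The same ratio was taken between the HCC cells, Huh7 over Hep3B, with libraries that the comparison of the HCSCs does not share, although each HCSC line was derived from 1 of these lines. The Hep3B library held 1739278 miRNA counts and the Huh7 library 5741567, so their raw counts do not compare directly. Of the 502 miRNAs, 465 had a ratio in the HCC cells, of which 88 (18.9%) were at least 2-fold higher in Huh7 and 247 (53.1%) in Hep3B. Of the miRNAs with such a ratio that were higher in Huh7-C, 65 were also higher in Huh7, 36 were within 2-fold and 4 were higher in Hep3B. Of those higher in Hep3B-C, 185 were also higher in Hep3B, 27 were within 2-fold and 4 were higher in Huh7. Library scaling moved these numbers, since TMM library sizes raised every HCC log2 ratio by 1.10, DESeq2 size factors by 1.06 and total reads by 2.38. Those higher in both Huh7-C and Huh7 numbered 110 with total reads, 102 with TMM and 103 with DESeq2, and those higher in both Hep3B-C and Hep3B 83 with total reads and 135 with either of the others. Over the 465 miRNAs, the log2 ratios of HCSCs and HCC cells had a Pearson correlation of 0.81 and a Spearman correlation of 0.80, given as a description, since each HCSC line comes from its HCC line.

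Most of the largest differences between the HCSC lines were also present in the HCC cells. miR-196a had a log2 ratio of 10.08 in HCC cells beside 11.62 in HCSCs, and miR-200b had 3850 counts in Hep3B and 0 in Huh7. let-7c had log2 ratios of -9.52 in HCC cells and -8.40 in HCSCs, and miR-146a -8.67 and -7.68. Among the 27 abundant miRNAs plotted by share, miR-122 was the largest exception, with 397 counts in Hep3B and 489443 in Huh7 (log2 ratio 8.54) beside 0.38 in HCSCs. The difference of the hepatocyte miRNA between the lines was thus seen in the HCC libraries and was under 2-fold in the HCSC libraries.

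For a few abundant miRNAs the ratios of HCSCs and HCC cells were far apart. miR-27a had 2340 counts in Hep3B and 7662 in Huh7 (log2 ratio -0.01), beside 3.14 in HCSCs. miR-100 had log2 ratios of 0.91 in HCC cells and 3.78 in HCSCs, and miR-30a -0.04 and -1.34. miR-146b-5p had 3548 and 20612 counts in HCC cells (log2 ratio 0.82) beside -1.68 in HCSCs. The DLK1-MEG3 locus had 3023 counts in Hep3B and 751 in Huh7, a log2 ratio of -3.73, beside -9.84 in HCSCs. The HCC ratios moved with library scaling. In alternatives chosen after seeing the data, with TMM, DESeq2 and total reads in turn, the HCC log2 ratio was 1.09, 1.05 and 2.37 for miR-27a, 2.01, 1.97 and 3.29 for miR-100, 1.07, 1.02 and 2.34 for miR-30a and 1.92, 1.87 and 3.20 for miR-146b-5p. That of the DLK1-MEG3 locus was -2.63, -2.68 and -1.35. The HCSC ratios moved less. In the same order they were 3.515, 3.568 and 3.247 for miR-27a and 4.153, 4.206 and 3.885 for miR-100. For miR-30a they were -0.968, -0.915 and -1.236, thus under 2-fold with TMM and DESeq2. For miR-146b-5p they were -1.309, -1.256 and -1.577. miR-379, of the DLK1-MEG3 locus, had 359 counts in Huh7 and 12 in Huh7-C, and 1037 in Hep3B and 10485 in Hep3B-C. These libraries differ in depth, with 1739278 miRNA counts in Hep3B and 5430195 in Hep3B-C. In CPM its log2 ratio was -3.25 in HCC cells and -9.35 in HCSCs. With TMM, DESeq2 and total reads in turn, its HCC ratio was -2.15, -2.20 and -0.87. Whether these ratios differ beyond variation between cultures cannot be tested with 1 library each.

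**Figure D5:**
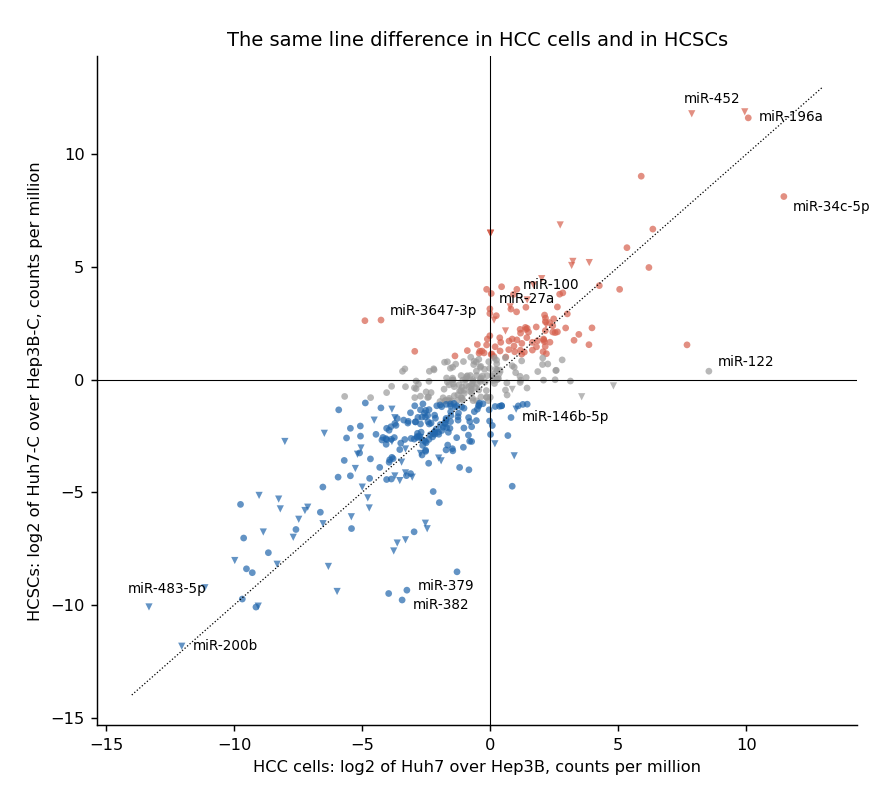
The log2 ratio of Huh7 over Hep3B in HCC cells (x axis) and of Huh7-C over Hep3B-C in HCSCs (y axis), from CPM, for the 465 miRNAs with a ratio in both, with triangles for bounds and a dotted line at equal ratios. Most points lie along the dotted line, and miR-122 (8.54 and 0.38) and miR-3647-3p (-4.26 and 2.65) lie far from it.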

How the data were processed

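Small RNA libraries of Hep3B-C and Huh7-C were compared, with those of Hep3B and Huh7 beside them. Raw read counts per miRNA, with no normalization, were deposited by the authors. Behind them, per the study's methods, stand Illumina Genome Analyzer II reads of at least 18 nt. The study filtered out redundant reads and contaminants and mapped the rest by SOAP (NCBI Build 36.1). Reads that no other small RNA class had claimed were named from miRBase release 17. What was counted as a redundant read is not stated.

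From these counts, levels relative to the miRNA counts of each library (CPM) were computed, miRNAs with 10 or more counts in either HCSC library were kept, and a ratio of at least 2-fold was called. A count of 0 was set to 3, so that the ratio is a bound. With 1 library a side no test was possible. The ratio and its interval were checked on simulated counts with counting error only, the interval where both counts were above 3. The ratio was checked with changes of 8-fold, and only for miRNAs with at least 100 counts in Hep3B-C. The check therefore does not cover 2-fold calls at lower counts. It also covers neither the intervals of miRNAs with 3 counts or fewer nor variation between cultures.

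The miRNAs named were the 20 most abundant of either line, the 10 largest ratios in each direction among those with at least 100 counts, the 10 largest differences in level in each direction, and members of families and marker lists. The members and lists were chosen with earlier results of these data known. miRNAs named outside this rule (miR-425, miR-375, miR-217, miR-216a, miR-210, miR-3647-3p) were chosen after their values were seen, as were the seed pairs shown.

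Sequences and positions were matched by name to RefSeq (GRCh38.p14) and GENCODE release 29, since the files hold no coordinates. For a few miRNAs without a hairpin entry the position is that of the mature miRNA. Alternatives were other library sizes (total reads, TMM, DESeq2), other filters, 0.5 counts added, an 8-fold threshold, and identical counts taken once. Python 3.11.15 (numpy 2.4.6, scipy 1.17.1, pandas 2.3.3) and R 4.3.3 (edgeR 4.0.16, DESeq2 1.42.0, for library sizes only) were used. The mRNA libraries were not analysed here.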

Additional observations from a re-analysis of the deposited data

Results flagged for a closer look

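Among miRNAs with at least 100 counts in a library, 2 were past 2-fold in opposite directions in the HCSCs and in the HCC cells. miR-3647-3p had 104 counts in Hep3B-C and 485 in Huh7-C, a log2 ratio of 2.65, whereas it had 64 counts in Hep3B and 11 in Huh7, a log2 ratio of -4.26. miR-30c-2* had 470 counts in Hep3B-C and 156 in Huh7-C, a log2 ratio of -1.17, whereas it had 140 counts in Hep3B and 989 in Huh7, a log2 ratio of 1.10. Its HCSC ratio was within 2-fold with TMM library sizes (-0.80) and DESeq2 size factors (-0.74), alternatives chosen after seeing the data. With 1 library each, the difference was not tested.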

How the results depend on the processing

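With 10 or more counts required in both libraries, 71 miRNAs were at least 2-fold higher in Huh7-C and 109 in Hep3B-C, with 100 or more counts in either library 49 and 133, and at 8-fold 36 and 86, each of which takes fewer miRNAs by construction. The numbers of 110 and 246 stayed within 1.5 times of themselves with total reads (115 and 237), TMM library sizes (129 and 207), DESeq2 size factors (131 and 206), no filter (161 and 280), 0.5 counts added and identical counts taken once. The lines shared 8 miRNAs when the 10 most abundant of each were taken, and 35 when the 50 most abundant were taken. The counts of differences shared with the HCC cells moved with the library size. Those higher in both Huh7-C and Huh7 numbered 110 with total reads, 102 with TMM and 103 with DESeq2 in place of 65, and those higher in both Hep3B-C and Hep3B numbered 83 with total reads in place of 185. Each library size adds 1 constant to every HCC log2 ratio, 2.38 with total reads, 1.10 with TMM and 1.06 with DESeq2. Why the library sizes of the HCC cells differ this much was not tested. Among the HCSC ratios of named miRNAs and the list medians, the signs that turned were those of miR-378, miR-30d and the medians of the miR-15 and miR-30 families, the first 3 with TMM and DESeq2 and the last also with total reads. In alternatives chosen after seeing the data, the HCC ratios of miR-27a, miR-30a and miR-210 turned positive with each other library size, the 18 clusters to 1 side became 17 with total reads, 16 with TMM and 18 with DESeq2, and the 11 seeds with opposite members 9 with TMM or DESeq2. Of the 46 named ratios, 30 moved beyond their counting interval with TMM and 30 with DESeq2, and 24 with total reads. No paired analysis was possible because each condition had 1 library and no replicate numbers. Depth limits statements on miRNAs under 3 counts, and the missing replicates limit all others.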

Other observations

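The family of miR-15 and miR-16 had 3 of 9 kept miRNAs at least 2-fold higher in Hep3B-C and 1 higher in Huh7-C (2 and 1 with TMM, 2 and 2 with DESeq2). miR-16, its most abundant member, had 8258 counts in Hep3B-C and 2718 in Huh7-C (log2 ratio -1.18), and miR-15b had 2506 and 354 (log2 ratio -2.40). miR-15a, whose hairpin lies on chromosome 13 in an intron of DLEU2, was within 2-fold with 868 and 992 counts (log2 ratio 0.62). miR-195, from chromosome 17, had 211 and 21 counts (log2 ratio -2.90). The cluster of miR-424, miR-503, miR-542-3p and miR-450a on chromosome X, in which miR-424 has the same seed, had 3 of 6 at least 2-fold higher in Huh7-C (4 of 6 with TMM or DESeq2) and none lower. miR-424 had 193 and 357 counts (log2 ratio 1.31).

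The pair of miR-105 and miR-767-5p on chromosome X had 395 counts in Hep3B-C and 1540 in Huh7-C over 4 names. The 3 kept were all at least 2-fold higher in Huh7-C. Only 2 of the 3 had 10 or more counts in both lines, and miR-105* (3 and 41) was kept through Huh7-C alone. In the HCC cells the 4 names of the pair had 65 counts in Hep3B and 1571 in Huh7 (log2 ratio 2.87). miR-210, known as the miRNA of low oxygen, had 229 and 417 counts in the HCSCs (log2 ratio 1.29) and 1120 and 1992 in the HCC cells (log2 ratio -0.89). The sign of the latter turned with library scaling, at 0.21 with TMM, 0.16 with DESeq2 and 1.49 with total reads, alternatives chosen after seeing the data. miR-206 had 9 and 95 counts in the HCSCs (log2 ratio 3.82) and 10 and 34 in the HCC cells. The HCC libraries held 1739278 (Hep3B) and 5741567 (Huh7) miRNA counts, so 10 and 34 counts are similar levels in CPM.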
